A study of Oryctolagus cuniculus with 16 samples.

Results

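The genes described here are 267 of the 23669 in the deposited count files. They were abundant in sorted microglia and scarce in sorted oligodendrocyte progenitor cells (OPC) of the same study. A member had a mean of at least 100 CPM (a gene's count relative to its library's total, in parts per M, M standing for mega, called raw CPM here) over the 8 microglia libraries and at least 16 times its mean over the 8 OPC libraries. It also had 2 to 59 annotated exon entries and a span under 400000 bases, and lay neither on the mitochondrial chromosome nor in 1 stretch of chromosome 12 that the rule names. The members were thus chosen by their measured levels in these same libraries, so the contrast between the cell types is a description here and was not tested.

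The study used premature New Zealand rabbit kits with intraventricular hemorrhage (IVH), a bleed into the fluid spaces of the brain. Kits received 5 µl of adenovirus into a cerebral ventricle, and cells were sorted from the cerebral hemispheres at day 7. Ad-PPARg carried PPARg with green fluorescent protein under the CMV promoter, which is active in many cell types, and Ad-GFP carried green fluorescent protein alone. Microglia were CD11b-positive cells with low CD45, and OPC were O4-positive cells. The 4 groups of 4 libraries each were microglia from Ad-PPARg kits, microglia from Ad-GFP kits, OPC from Ad-PPARg kits and OPC from Ad-GFP kits. All kits had IVH and an adenovirus injection, so no group shows the healthy or the uninjected brain. The labels name 10 kits for the 16 libraries, and 6 kits gave both cell types. The part of a kit's identifier before the hyphen, called its prefix here, takes 6 values, and kits of 1 prefix all received the same virus. Ad-PPARg kits had the prefixes K188, K196 and K197, and Ad-GFP kits K193, K195 and K198. What the prefix stands for is not given in the sources used here.

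Microglia are the resident immune cells of the brain, derived from blood-forming precursors of the embryo, whereas OPC arise from neural stem cells and later make myelin. Genes for phagocytosis, complement, antigen handling and immune receptors are typically strong in microglia and weak in the oligodendrocyte lineage. PPARg is a nuclear receptor that binds lipid ligands and, in macrophages and microglia, is known to favour lipid uptake and to restrain inflammatory gene expression. The files give Ensembl rabbit identifiers and positions without gene names, and none of the identifiers occurred in the reference table of gene names used here. The members are therefore given by identifier and position, no role is assigned to any of them, the named markers of microglia or OPC and PPARg itself could not be checked, and no sequence is shown.

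Library totals were 6.24 to 17.6 M counts in microglia and 6.56 to 15.8 M in OPC. Some libraries stood apart in the mitochondrial genes that start past position 7000 of that chromosome. Their summed raw CPM was 51.1 to 86.0 in microglia Ad-PPARg replicates 1 and 2 and Ad-GFP replicate 1, against 8711 to 19510 in the other microglia libraries. In OPC it was 107 and 80.2 in Ad-PPARg replicates 1 and 4, against 13678 to 18209 in the other 6. The part of these differences in the results below was not tested, and fits without the 3 low microglia libraries are given below. Labels name a different kit for each library of a group, so p-values within a cell type measure the spread between kits. Some kits of a group share a prefix.

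Of 2044 genes with at least 100 raw CPM in microglia, 299 reached 16 times their OPC level. The limits on exon entries, span and position then left out 32, of which 21 had a single exon entry. The member nearest the level limit stood at 101.5 raw CPM, and the nearest gene outside it at 99.2. The member nearest the other limit was 16.1-fold above OPC, and the nearest gene outside it 15.9-fold. The median member had 267 raw CPM in microglia, with quartiles of 168 and 517, and lay 47.8-fold above its mean in OPC, with quartiles of 28.7 and 64.1. Only 5 members lay more than 100-fold above OPC, and the highest ratio was 175.

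**Figure D1:**
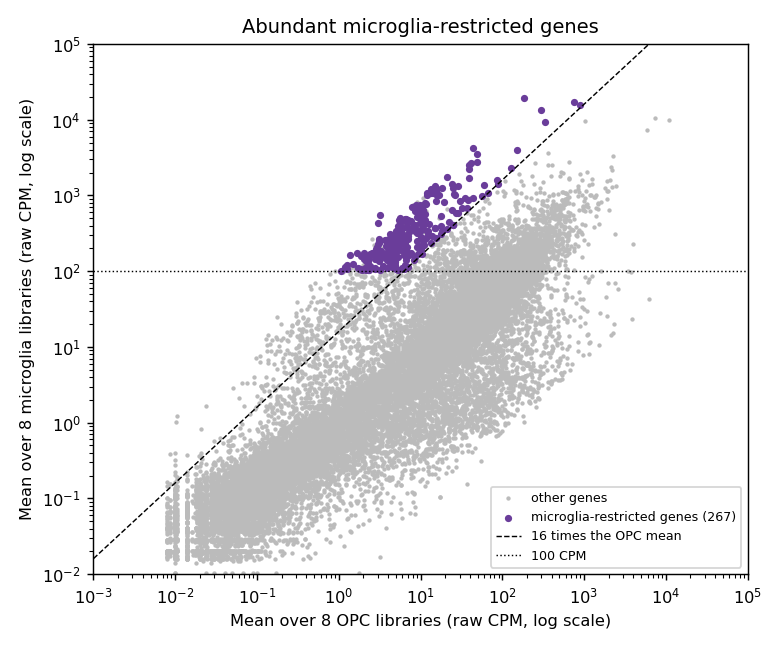
Mean raw CPM over the 8 OPC libraries (horizontal, log scale) against mean raw CPM over the 8 microglia libraries (vertical, log scale), 1 point per gene, with the 267 members marked. The members occupy the corner above both limits by construction, and unmarked points there are among the 32 genes left out for exon entries, span or position.

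Together the members made up a large share of each microglia library and a small share of each OPC library. They held 19.7% ± 1.61 of all counts in microglia (SD, n = 8, range 17.1 to 22.5%) and 0.548% ± 0.151 in OPC (SD, n = 8, range 0.386 to 0.808%). A few genes supplied most of the microglial share: the 36 members of at least 1000 raw CPM held 64.8% of the members' summed CPM, 13 members held 50% of it, and the top 5 held 38.1%. The 95 members under 200 raw CPM held 7.01%. Per kilobase of annotated exon length, the levels ran from 12.4 to 22682 raw CPM with a median of 120. In their annotation the members had a median of 10 exon entries and a span of 16606 bases, compared with 13 entries and 24635 bases for the 1621 other genes of at least 100 raw CPM within the same limits. On unplaced scaffolds lay 81 members (30.3%, against 27.8% of those other genes). Chromosome 13 held 29 (10.9%, against 7.59%), chromosome 1 held 19 and the X chromosome 7. No test was made on these shares.

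The first question was whether PPARg overexpression changed these genes in microglia. No member passed the adjusted threshold. Of 267 members, 0 had an edgeR adjusted p under 0.05, as did 0% of the 13041 genes tested, and the lowest adjusted p among members was 0.409. The members were split evenly: 135 had higher and 132 lower fitted levels after Ad-PPARg, with a median log2 fold change of 0.0096, beside 0.027 over all genes tested. The middle 50% of the members lay between -0.20 and 0.27 on the log2 scale, and 234 differed by less than 1.5-fold. The extremes were -1.70 and 1.88, and 10 members differed by 2-fold or more, 3 higher and 7 lower. The median SE of a member's log2 fold change was 0.18. In simulated libraries of this size in which 200 members were changed, the same test recovered 57% of those changed 2-fold and 94% of those changed 4-fold, with 9 false calls. Changing so many genes at once eases the adjusted threshold. Each gene was drawn on its own, without effects of prefix or of outlying libraries. These rates may therefore be too high for the real libraries.

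Below the adjusted threshold, low p-values were more frequent among the members than over all genes, while complete separation of the treatments was not. An unadjusted edgeR p under 0.05 was found for 50 members (18.7%, background 11.4%), of which 28 were higher (background 4.87%) and 22 lower (background 6.54%) after Ad-PPARg. Among the 1777 other genes of at least 100 raw CPM in microglia, the share was 15.8%. The 4 Ad-PPARg libraries did not overlap the 4 Ad-GFP libraries in 7 members (2.62%, background 4.15%), 3 higher (background 1.84%) and 4 lower (background 2.31%). The unadjusted count depended on single libraries. Leaving out Ad-PPARg replicate 3 gave 26 (background 5.47%), and leaving out Ad-PPARg replicate 4 gave 30 (7.64%). Leaving out an Ad-GFP library gave 27 for replicate 1 (7.2%), 32 for replicate 3 (6.03%) and 77 for replicate 4 (21.2%).

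The number of adjusted calls also depended on the method. DESeq2 called 6 members of the 266 that it gave an adjusted p (background 1.04%), 4 higher (0.497%) and 2 lower (0.538%). With sample quality weights in limma voom, 34 were called (background 9.82%), 14 higher (4.94%) and 20 lower (4.88%), and these included all 6 of the DESeq2 calls. Without the 3 microglia libraries low in the mitochondrial block, edgeR called 5 members (background 0.417%), 1 higher (0.168%) and 4 lower (0.249%), and of these 1 was among the DESeq2 calls. That fit kept Ad-PPARg kits K197-3 and K197-4, of a single prefix, and Ad-GFP kits K195-9, K195-11 and K198-7. Virus and prefix K197 cannot be told apart in it. With counts summed per prefix 0 were called (background 0%), as with the prefix as a random block in limma voom (background 0.00767%), without the filter on low counts (0.0178%) and without the 2 shallowest libraries (0.0702%). Since no prefix had both viruses, virus and prefix can be separated only as far as the 3 prefixes per virus vary among themselves.

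**Figure D2:**
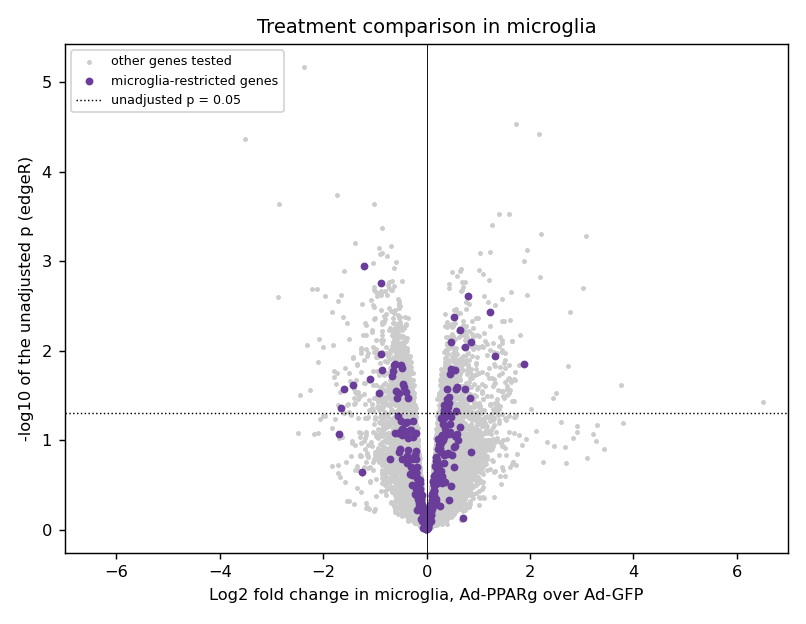
Log2 fold change of Ad-PPARg over Ad-GFP in microglia (horizontal) against -log10 of the unadjusted p from edgeR (vertical), 1 point per gene tested, with the members marked and a dotted line at 0.05. The members lie on both sides of 0, 135 above and 132 below, and 50 lie above the line, none with an adjusted p under 0.409 (edgeR).

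The 2 members lowest in p with higher levels after Ad-PPARg were ENSOCUG00000012702 and ENSOCUG00000002339. ENSOCUG00000012702 (chromosome 4, 10567695 to 10591622, minus strand, 24 exon entries) had 839.8, 690.1, 994 and 983 CPM in the Ad-PPARg libraries and 418, 421, 484 and 697 in the Ad-GFP libraries, replicates 1 to 4 in each case. From here on, CPM of single microglia genes are scaled by TMM. All Ad-PPARg libraries but replicate 2 lay above every Ad-GFP library, and replicate 2 fell just below Ad-GFP replicate 4. The group means were 877 ± 143 against 505 ± 131 CPM (SD, n = 4 each). The log2 fold change was 0.80 ± 0.20 (SE; adjusted p = 0.409, edgeR). DESeq2 gave this gene an adjusted p of 0.0154. ENSOCUG00000002339 (scaffold GL019738, 2820 to 5426, plus strand, 10 exon entries) had 632, 236, 653 and 708 CPM after Ad-PPARg and 162, 271, 272 and 248 after Ad-GFP. Again Ad-PPARg replicate 2, from kit K196-4, was the exception, lying among the Ad-GFP libraries while the other 3 stood at over 2 times any of them. The means were 557 ± 217 against 238 ± 52.3 CPM (SD, n = 4 each). The log2 fold change was 1.23 ± 0.32 (SE; adjusted p = 0.409, edgeR, and 0.0176 with DESeq2). Without that library the log2 fold change was 1.48 (edgeR adjusted p = 0.0549), and without the 3 libraries low in the mitochondrial block, which include it, 1.37 (edgeR adjusted p = 0.0162). The last fit has Ad-PPARg kits of prefix K197 only.

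The 2 members lowest in p with lower levels were ENSOCUG00000003186 and ENSOCUG00000008236. ENSOCUG00000003186 (chromosome X, 108767871 to 108815679, plus strand, 9 exon entries) had 152, 266, 138 and 159 CPM after Ad-PPARg and 453, 487, 469.7 and 246 after Ad-GFP. One library in each group stood apart, Ad-PPARg replicate 2 as the highest of its group and Ad-GFP replicate 4 as the lowest of its own, and these were the only ones to overlap. The means were 179 ± 59.02 against 414 ± 113 CPM (SD, n = 4 each). The log2 fold change was -1.21 ± 0.27 (SE; adjusted p = 0.409, edgeR, and 0.00452 with DESeq2). ENSOCUG00000008236 (chromosome 15, 4553775 to 4582889, plus strand, 10 exon entries) had 356, 409, 362 and 474 CPM after Ad-PPARg and 973, 492, 659 and 843 after Ad-GFP. Every Ad-PPARg library lay below every Ad-GFP library, although Ad-PPARg replicate 4 and Ad-GFP replicate 2 were close. The means were 400.3 ± 54.6 against 742 ± 211 CPM (SD, n = 4 each). The log2 fold change was -0.89 ± 0.21 (SE; adjusted p = 0.409, edgeR, and 0.0120 with DESeq2). These 4 genes were picked for low p-values, so the separation of their groups is no further evidence.

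Of the 2 most abundant members, one varied far more between libraries than the other. ENSOCUG00000022536 (chromosome 15, 62156546 to 62163822, minus strand, 7 exon entries; 14135 raw CPM per kilobase) had 20289.6, 16177, 6136 and 12209 CPM after Ad-PPARg and 39377, 23781, 23607 and 17251 after Ad-GFP. The 2 extremes, Ad-PPARg replicate 3 and Ad-GFP replicate 1, were 6.42-fold apart, and the groups overlapped through Ad-PPARg replicate 1 and Ad-GFP replicate 4. The log2 fold change was -0.92 (SE 0.36, edgeR adjusted p = 0.421), and it was -0.65 without Ad-GFP replicate 1. ENSOCUG00000014108 (scaffold GL018717, 2789010 to 2791550, plus strand, 4 exon entries; 22682 raw CPM per kilobase) had 12462, 18092, 12886 and 15646 CPM after Ad-PPARg and 22526, 20490.2, 21268 and 16031 after Ad-GFP. Its log2 fold change was -0.44 (SE 0.17, edgeR adjusted p = 0.421), with Ad-PPARg replicate 2 above Ad-GFP replicate 4.

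The weight of the top genes within the members' counts can be read per library. The 5 most abundant members took 35.5, 39.0, 30.4 and 31.2% of the members' counts in the Ad-PPARg microglia and 48.1, 41.1, 40.2 and 37.4% in the Ad-GFP microglia. Only Ad-PPARg replicate 2 reached into the Ad-GFP range. The means were 34.03% ± 3.98 against 41.7% ± 4.54 (SD, n = 4 each; exact permutation, two-sided, p = 0.0571, where 0.0286 is the smallest possible). After Benjamini-Hochberg adjustment over the 5 library measures compared in this way, p was 0.286 (exact permutation, n = 4 each). The 5 genes did not move equally. ENSOCUG00000022536, the most abundant, had a log2 fold change of -0.92, and the others had -0.44, -0.38, -0.07 and -0.38 (edgeR). Its part in the difference between the treatments was not separated from that of the others. The members' whole share of microglial counts was 17.1, 21.0, 18.8 and 19.3% after Ad-PPARg and 22.5, 19.0, 20.1 and 19.9% after Ad-GFP. These ranges overlapped, with means of 19.0% ± 1.63 against 20.4% ± 1.4996 (SD, n = 4 each, exact permutation p = 0.314, adjusted 0.524). In bulk RNA, fewer cells of a type and less RNA per cell cannot be told apart in such shares. For the converse measure, the 286 genes with the mirror-image pattern (abundant in OPC, scarce in microglia) took 0.352% ± 0.122 of the counts of Ad-PPARg microglia and 0.256% ± 0.0893 of those of Ad-GFP microglia (4 libraries each, SD; p = 0.314 by exact permutation, adjusted 0.524).

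The 2 members nearest the 16-fold limit differed from each other in their steadiness. ENSOCUG00000009645 (chromosome X, 9714313 to 9718085, plus strand, 6 exon entries) ran from 1225 to 1511 CPM after Ad-PPARg and from 1259 to 1577 after Ad-GFP, with a log2 fold change of -0.04 (SE 0.13). The groups overlapped almost fully, and the sign of this small value changed with single libraries. ENSOCUG00000024302 (scaffold GL018972, 7658 to 11002, plus strand, 4 exon entries) had 998, 1075, 634 and 725 CPM after Ad-PPARg and 1649.8, 1249, 1389 and 1005 after Ad-GFP. Its log2 fold change was -0.63 (SE 0.21, edgeR adjusted p = 0.418). Kit K198-7 (Ad-GFP replicate 4) again lay nearest to the Ad-PPARg libraries.

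Between kits of the same treatment, the members varied somewhat more than other abundant genes. The SD of log2 CPM within treatment groups had a median of 0.28 over the members (quartiles 0.20 and 0.39), beside 0.20 over the 1777 other genes of at least 100 raw CPM. It exceeded 1 in 7 members (2.62%) and in 28 of the other genes (1.58%). It differed little by level, with a median of 0.29 in members under 200 raw CPM and 0.26 in those of 1000 and over. At the quiet end were a member on scaffold GL018973 (53587 to 65814), which ran from 237 to 294 CPM over the 8 microglia libraries, and one on chromosome 7 (172163181 to 172264390), from 103 to 121 CPM.

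At the other end was ENSOCUG00000027260 (scaffold GL018716, 49308 to 53967, plus strand, 7 exon entries), which was close to on or off in single kits. It had 365, 1.28, 228 and 345 CPM after Ad-PPARg and 0.965, 1.52, 1.49 and 573 after Ad-GFP. Both treatments held high and low libraries, with nothing between 1.52 and 228 CPM, and the extremes were 593-fold apart. Its log2 fold change was 0.71 with an SE of 2.15 (edgeR adjusted p = 0.905), and single libraries set that value. It was 7.44 without Ad-GFP replicate 4 (edgeR adjusted p = 0.0938) and 0.30 to 1.13 without each of the others, 5.48 with quality weights and 4.01 with the prefix as a block (limma voom adjusted p = 0.177 and 0.731). In OPC libraries the same gene had 0.700, 7.49, 2.12 and 0.242 raw CPM after Ad-PPARg and 0.127, 0.240, 15.2 and 13.6 after Ad-GFP. Arranged by prefix, it was high in both cell types in K197 and K198 kits and low in both in K196 and K195 kits. The K193 kit, with microglia only, was low, and the K188 kit was high in microglia and at 0.700 raw CPM in OPC. K196 kits differ between the cell types, K196-4 giving the microglia and K196-12 the OPC, and likewise only K198-7 of the K198 kits gave microglia. Reads of near-identical genes may be split or lost in such counts, which was not tested.

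The next 5 members in the order of variability were not on or off, and in 3 of them 1 kit separated from its treatment group. ENSOCUG00000008303 (chromosome 1, 113690095 to 113701956) had 14.0, 341, 37.0 and 29.3 CPM after Ad-PPARg and 369, 247, 223 and 162 after Ad-GFP. ENSOCUG00000002924 (chromosome 17, 73821809 to 73831480) had 36.7, 514, 42.5 and 84.7 CPM after Ad-PPARg and 969.8, 371, 371 and 489 after Ad-GFP. In both genes Ad-PPARg replicate 2 lay within the Ad-GFP range, while the other 3 Ad-PPARg libraries lay far below it. With all libraries their log2 fold changes were -1.24 (SE 0.94, edgeR adjusted p = 0.607) and -1.70 (SE 0.87, edgeR adjusted p = 0.477). Without Ad-PPARg replicate 2 they were -3.21 (edgeR adjusted p = 0.0515) and -3.33 (edgeR adjusted p = 0.0599). Without the 3 libraries low in the mitochondrial block, of which that library is one, they were -2.66 (edgeR adjusted p = 0.00846) and -2.68 (edgeR adjusted p = 0.0211). All Ad-PPARg libraries left in that fit are of prefix K197, so virus and prefix cannot be told apart there.

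The remaining 3 showed related arrangements. ENSOCUG00000026988 (chromosome 16, 68595412 to 68603910) had 13.4, 534, 11.0 and 41.7 CPM after Ad-PPARg and 26.5, 219, 234 and 147 after Ad-GFP, so that each group held both high and low libraries. One library set its log2 fold change, which was -0.06 with all libraries (SE 1.32), -2.82 without Ad-PPARg replicate 2 (edgeR adjusted p = 0.266) and -2.93 without the 3 libraries low in the mitochondrial block (edgeR adjusted p = 0.0694). The mean by which ENSOCUG00000026988 passed the level limit, 152 raw CPM, includes 535 raw CPM in Ad-PPARg replicate 2. Its place among the members thus leans on the same library. ENSOCUG00000001856 (chromosome 16, 66243434 to 66257825) had 7.59, 129, 52.8 and 24.3 CPM after Ad-PPARg and 235, 143, 158 and 139 after Ad-GFP. Its groups did not overlap, but Ad-PPARg replicate 2 came within 1.5-fold of 3 Ad-GFP libraries, and the log2 fold change was -1.65 (SE 0.70, edgeR adjusted p = 0.428). Leaving that library out gave -2.56 (edgeR adjusted p = 0.151), and limma voom with quality weights gave -1.97 (adjusted p = 0.0458). ENSOCUG00000001856 reached the level limit of the rule through its Ad-GFP libraries (mean 169 CPM, against 53.4 CPM after Ad-PPARg). Its place among the members is thus not independent of its treatment difference. ENSOCUG00000003958 (chromosome 8, 33364827 to 33389948) ran the other way, with 252, 127, 574 and 253 CPM after Ad-PPARg and 32.9, 48.8, 63.6 and 183 after Ad-GFP. Here Ad-PPARg replicate 2 and Ad-GFP replicate 4 were the overlapping pair, and the log2 fold change was 1.88 (SE 0.62, edgeR adjusted p = 0.418). Without Ad-GFP replicate 4 it was 2.64 (edgeR adjusted p = 0.0642). ENSOCUG00000003958 likewise reached the level limit through 1 group, its Ad-PPARg libraries (mean 302 CPM, against 82.2 CPM after Ad-GFP).

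**Figure D3:**
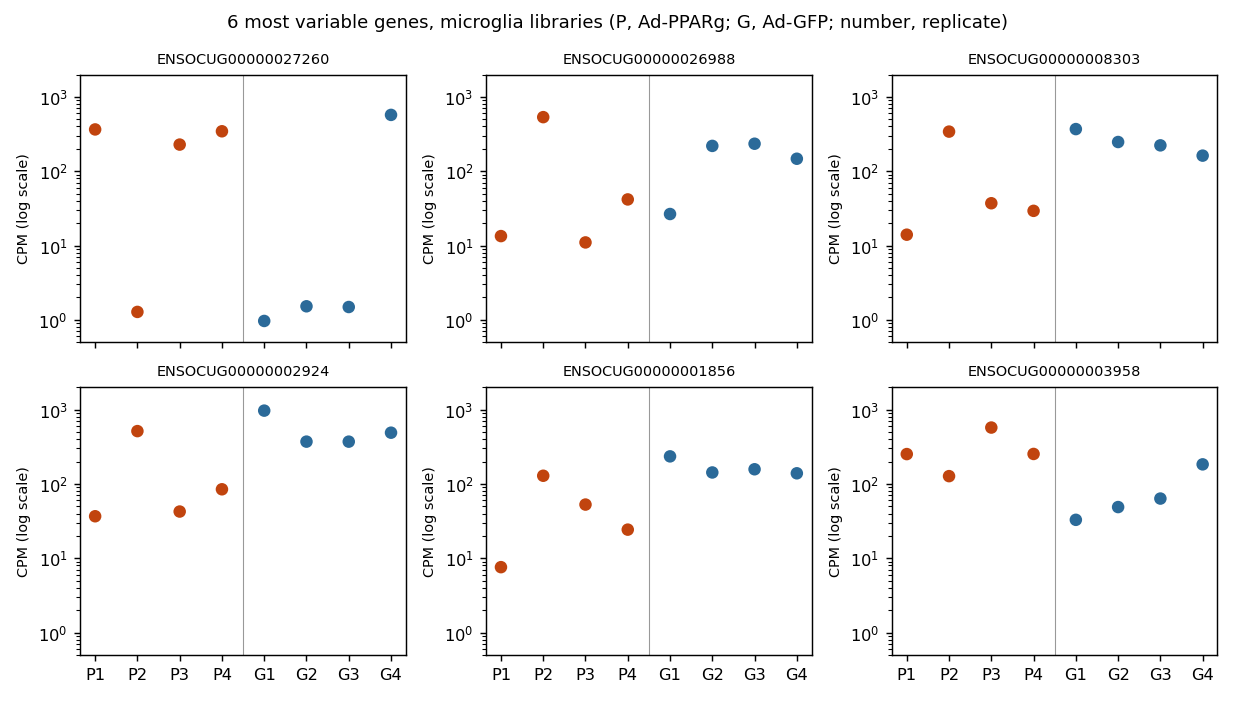
CPM (vertical, log scale) of the 6 most variable members in the 8 microglia libraries, Ad-PPARg replicates (P1 to P4) left of Ad-GFP replicates (G1 to G4), 1 point per library. ENSOCUG00000027260 alternates between about 1 CPM and over 200 CPM in both groups, and Ad-PPARg replicate 2 is the highest Ad-PPARg library in ENSOCUG00000008303, ENSOCUG00000002924, ENSOCUG00000026988 and ENSOCUG00000001856.

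Over the microglia libraries the members did not vary as one block. With log2 CPM centred on the treatment-group means, the median Pearson correlation over the 35511 pairs of members was 0.21 (8 libraries, quartiles -0.16 and 0.54), beside 0.19 for pairs of the other abundant genes. Pairs share libraries, depth and scaling, and no test was made. The first principal component of these deviations held 52.8% of their variance and set Ad-PPARg replicate 2 (weight 0.70) against Ad-GFP replicate 4 (weight -0.49), with 147 members on the positive side and 120 on the negative. It leaned on the most variable genes. Without the 6 most variable members it held 37.3% and set Ad-PPARg replicate 2 (0.61) and Ad-GFP replicate 1 (0.60) against the others. Both of these are libraries low in the mitochondrial block, while the other such library, Ad-PPARg replicate 1, had a weight of -0.12. With every member scaled to equal spread it held 30.5%, its largest weights were those of Ad-PPARg replicate 1 (0.59) and Ad-GFP replicate 2 (0.58), and 213 members lay on the opposite side from these. Most members thus shifted the same way in some libraries: 55 lay above their group mean in Ad-PPARg replicate 1 and 211 in Ad-PPARg replicate 4. For the 1777 other abundant genes, scaled alike, the first component held 33.5%, with 726 genes on the positive and 1051 on the negative side. Its largest weights were those of Ad-GFP replicates 2 (0.68) and 4 (-0.64).

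Some members lie next to each other on the genome, and most of these pairs, which are few, had a positive correlation. Members less than 50000 bases from the next formed 12 position groups with 25 members. The 14 pairs within them had a median correlation of 0.56 over the microglia libraries, beside 0.21 over all pairs of members (upper quartile 0.54). Of the 14 pairs 78.6% were positive, beside 65.1% of all pairs of members, and no test was made. The correlations ranged widely, from -0.56 for a pair on chromosome 13 (31407761 to 31490927) to 0.91 for a pair on scaffold GL018789 (576393 to 626292). One group had 3 members, which follow each other on the minus strand of chromosome 13 between 130475113 and 130493886 with 4, 3 and 4 exon entries, and their pairs correlated at 0.79 to 0.84. The annotated spans of these 3 do not overlap. Near-identical neighbours can still share reads, and whether these do was not tested. The first had 1249, 1125, 1603 and 1743 CPM after Ad-PPARg and 977, 1007, 1092 and 1116 after Ad-GFP, so that its groups did not overlap. The second averaged 1262 ± 383 CPM in Ad-PPARg and 924 ± 136 in Ad-GFP libraries (SD, n = 4 each), and the third 608 ± 202 in Ad-PPARg and 361 ± 109 in Ad-GFP libraries. Replicates 3 and 4 of Ad-PPARg, from kits K197-3 and K197-4, were the highest for all 3 genes. Their log2 fold changes were 0.45, 0.45 and 0.75, with edgeR adjusted p-values of 0.418 to 0.455.

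In OPC libraries the members left a small trace. Every member had at least 1 count in every OPC library, and the OPC mean was 0.570 to 6.23% of the microglia mean, with a median of 2.09%. The upper limit of that range is set by the rule. No OPC library was free of it: the summed share was 0.386, 0.808, 0.443 and 0.472% in the Ad-PPARg libraries and 0.449, 0.480, 0.721 and 0.622% in the Ad-GFP libraries. The groups overlapped widely, with means of 0.527% ± 0.190 against 0.568% ± 0.127 (SD, n = 4 each; exact permutation, two-sided, p = 0.714, also after adjustment over the 5 measures). The difference changed sign without Ad-PPARg replicate 1 (0.0061 percentage points) or without Ad-GFP replicate 3 (0.010), from -0.041 with all libraries. The source of the trace was not tested.

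As a median over the members, the trace ranged about 5-fold between OPC libraries. The median member stood at 0.694, 3.57, 1.31 and 1.80% of its microglia mean in the Ad-PPARg libraries and at 1.34, 1.82, 3.47 and 2.51% in the Ad-GFP libraries. The lowest was kit K188-11 and the highest K197-3, both given Ad-PPARg. Both kits of prefix K198 lay above both of K195, but the 2 kits of K197 stood apart, K197-3 at 3.57% and K197-4 at 1.31%. Spearman correlation over the 267 genes between an OPC library and the mean microglia profile was 0.589 in K188-11, the lowest, and 0.872 in K198-7, the highest, across genes that are not independent replicates. The share in OPC as a percentage of the share in the same kit's microglia was 2.26, 4.29 and 2.30% in the Ad-PPARg kits K188-11, K197-3 and K197-4, and 2.37, 2.39 and 3.14% in the Ad-GFP kits K195-9, K195-11 and K198-7.

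**Figure D4:**
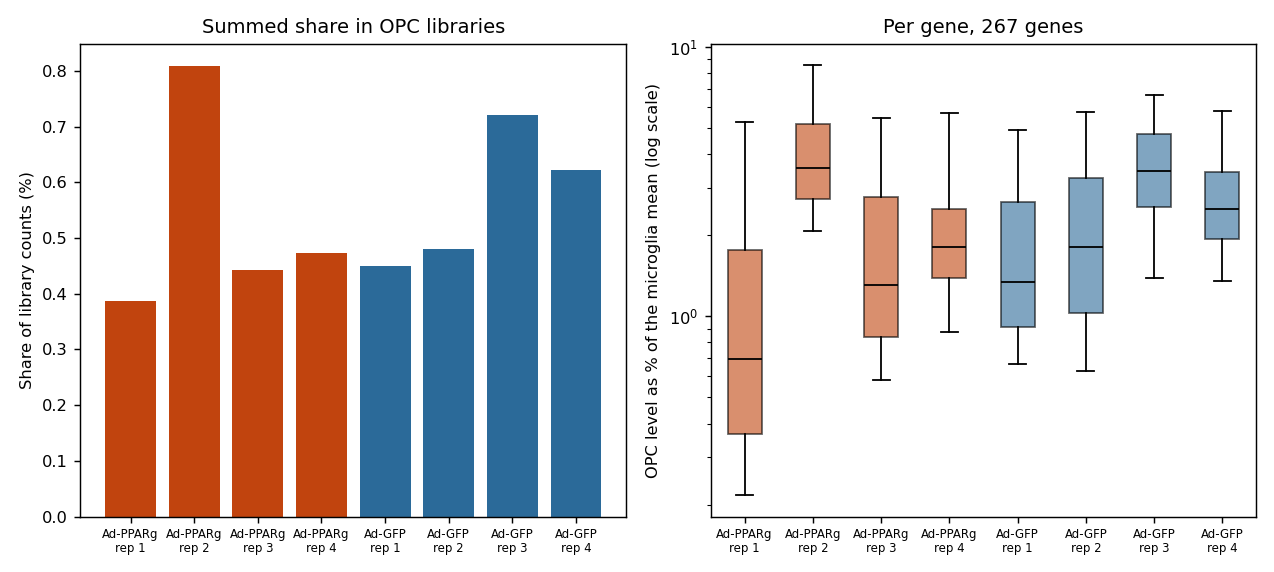
Left, share of each OPC library's counts held by the 267 members (bars, %, from 0). Right, the level of each member in that library as a percentage of its mean over microglia libraries (log scale; boxes, median and quartiles; whiskers, 5th to 95th percentile), Ad-PPARg kits left of Ad-GFP kits. Kits K197-3, K198-5 and K198-7 have the highest shares, 0.808, 0.721 and 0.622%, and the lowest is 0.386% in K188-11.

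The members were also split by their ratio to OPC, which uses the same OPC libraries, so that the following is a description with nothing read from it. For the 194 members at least 32-fold above OPC, the library medians ran from 0.465 to 3.17% of the microglia level, a 6.82-fold range. For the 73 members at 16 to under 32-fold they ran from 2.82 to 6.32%, a 2.24-fold range. The members correlated with each other over the OPC libraries at a median of 0.73 (35511 pairs, 95.8% positive), beside 0.022 for the other genes abundant in microglia. One component held 77.5% of the variance, with 263 of 267 members on the same side. This is a description over 8 libraries that share scaling and depth. The members were chosen for low levels relative to microglia in these same OPC libraries, whereas the other genes were not chosen in that way. No set of genes matched in OPC level was compared. The 5 most abundant members took 47.5% ± 6.69 of the members' counts in the Ad-PPARg OPC and 44.6% ± 2.35 in the Ad-GFP OPC (SD, n = 4 each, exact permutation p = 0.543, adjusted 0.679).

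Treatment was also compared per gene in OPC. All 267 members were tested there, and 0 were called (edgeR, background 0% of 13492 genes). An unadjusted p under 0.05 was found for 3 members (1.12%, background 1.23%), 2 higher (background 0.763%) and 1 lower (background 0.467%), and the groups overlapped in every member (background of groups not overlapping 1.25%). Fitted levels were lower after Ad-PPARg in 194 members and higher in 73, with a median log2 fold change of -0.17 (0.032 over all genes). Single libraries moved these values: the median was 0.057 without Ad-PPARg replicate 1 and -0.57 without Ad-PPARg replicate 2. The median SE was 0.51, and in simulated OPC libraries the test recovered 32% of changed genes when these were changed 2-fold and 88% when changed 4-fold, with 6 false calls. Those genes were not limited to the members and were again drawn without effects of prefix or of outlying libraries. Some named members had OPC log2 fold changes close to their microglial ones, and others had the opposite sign. Since 6 kits gave both cell types, the values of a gene in OPC and in microglia are not independent. ENSOCUG00000002339 had 1.09 (SE 0.39) in OPC and 1.23 in microglia, ENSOCUG00000008236 had -0.90 (SE 0.49) and -0.89, ENSOCUG00000022536 had -0.90 (SE 0.62) and -0.92, and ENSOCUG00000024302 had -0.67 (SE 0.38) and -0.63. The signs were opposite for ENSOCUG00000001856, at 0.31 (SE 0.75) in OPC and -1.65 in microglia, and for ENSOCUG00000008303, at 0.49 (SE 0.85) in OPC and -1.24 in microglia. They were also opposite for ENSOCUG00000027260 (-1.47, SE 1.35, in OPC and 0.71 in microglia), ENSOCUG00000012702 (-0.07, SE 0.58, and 0.80) and ENSOCUG00000026988 (0.39, SE 0.30, and -0.06). The same held for ENSOCUG00000014108 (0.0024 and -0.44) and ENSOCUG00000009645 (0.029 and -0.035), with values near 0. The remaining named members had the same sign in both cell types. The lowest edgeR adjusted p of any member in OPC was 0.9999.

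The difference of the treatment effects, OPC minus microglia, was tested over all 16 libraries. The edgeR fit treated these libraries as independent, although 6 kits gave both cell types, so its SE and p-values leave out the pairing. Of 267 members, 0 were called (edgeR, background 0%), with no adjusted p below 0.997. At an unadjusted p under 0.05 there were 2 (background 2.73%), both with a positive difference (background 1.2%). The median difference was -0.24 on the log2 scale (-0.021 over all genes) with a median SE of 0.54. For ENSOCUG00000012702 it was -0.91 (SE 0.61) and for ENSOCUG00000003186 it was 1.08 (SE 0.39), both at an adjusted p of 0.997 with edgeR. In simulated libraries this test recovered 7% of differences of 2-fold and 62% of those of 4-fold, with 0 false calls, so a moderate difference could not be detected at this size. The changed genes were not limited to the members, and libraries were drawn without pairing by kit or effects of prefix. These rates may be too high for the members, since the median SE over all genes was only 0.39.

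Finally, the OPC trace was compared with the microglia of the same kit, gene by gene. Each library's log2 deviations from its own group mean were correlated over the 267 members. The deviations were not scaled to equal spread, so the most variable members weigh most. ENSOCUG00000027260 had an SD within microglia groups of 4.10 on the log2 scale, beside a median of 0.28 over the members. It was also high in both cell types in K197 and K198 kits and low in both in K195 and K196 kits. The part of single members in these correlations was not tested. The 6 kits with both libraries gave a median Pearson r of 0.279 (0.0211 to 0.401). Libraries from different kits of 1 prefix gave 0.249 (6 pairs, 0.0722 to 0.348), other prefixes of the same treatment -0.137 (20 pairs, -0.505 to 0.257) and kits of the other treatment -0.0359 (32 pairs, -0.330 to 0.390). Same-kit values overlapped those between kits of 1 prefix, with 1 below that range and 2 above it, and the microglia of the own kit gave the highest correlation in 3 of 6. Subtracting a group mean also pulls down the correlation of different kits within 1 treatment. The lowest same-kit value was that of K188-11, the kit with the weakest trace, and the highest that of K198-7.

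**Figure D5:**
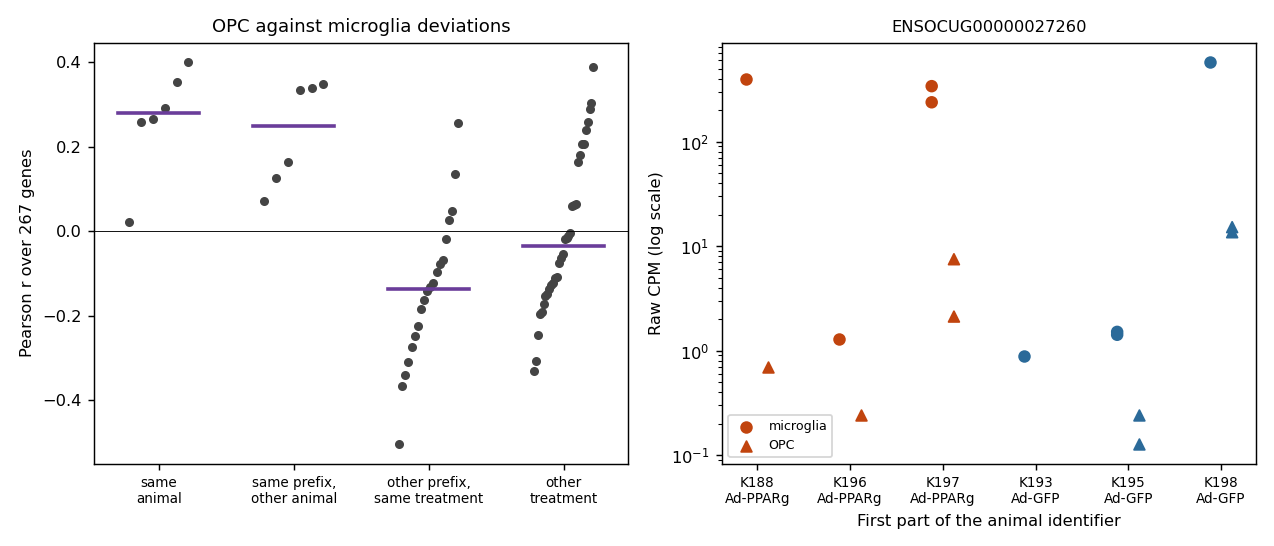
Left, Pearson r over 267 genes between the deviations of an OPC library and of a microglia library from their group means, 1 point per pair, by whether the pair shares the kit, the prefix, the treatment or none. Right, raw CPM (log scale) of ENSOCUG00000027260 by prefix in microglia and OPC, where K197 and K198 kits are high and K195 and K196 kits low in both cell types.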

How the data were processed

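Per the labels' protocols, RNA of sorted cells went to a commercial provider for paired-end sequencing. Tools listed in the submitters' processing notes, with no roles, were Subread 1.5.2, STAR 2.5.2b and bcl2fastq 2.17. The deposited values are read counts per gene, not normalized, with exon positions, strand and length per the file headers. Not given in the sources used here were the genome build, annotation release and strand setting. Of the files' identifiers, 0 matched the reference table (38822 genes of mOryCun1.1).

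Raw CPM served for the rule, shares and trace, and TMM-scaled CPM for treatment. Treatment was tested with edgeR's quasi-likelihood test (4.0.16, R 4.3.3, robust, default filter), with Benjamini-Hochberg adjustment at 0.05 over all genes tested, checked on simulated data. The alternatives used DESeq2 1.42.0, limma 3.58.1 voom, other scalings and filters, other rule limits and libraries left out. Single values per library were compared by exact permutation (two-sided). A prior count of 2 was added for log2 CPM. The members and lists were chosen with earlier results of these data known. Named genes were the 2 lowest in p per direction, the 2 most abundant, the 2 nearest the 16-fold limit, and the most and least variable. Kits pair the cell types, per the labels. Unscaled same-kit deviations, in which the most variable members weigh most, correlated at 0.0211 to 0.401 over the members.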

Additional observations from a re-analysis of the deposited data

Results flagged for a closer look

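In 78 groups of 4 libraries examined for the named members, 8 single libraries stood apart from the other 3 by more than Dixon's 95% critical value for 4 values. Chance flags about 1 in 20 groups, a rate that holds for unselected genes and is no benchmark here, since the members were picked for low p or high variability in the same libraries. Of the 8, 6 were Ad-PPARg replicate 2, all but 1 of them in microglia (kit K196-4) and 1 in OPC (kit K197-3). These are different libraries from kits of different prefixes, which share only the treatment and the replicate number.

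In microglia, Ad-PPARg replicate 2 was low in ENSOCUG00000002339, at 236 CPM. It was high in ENSOCUG00000003186 at 266 CPM, in ENSOCUG00000026988 at 534 CPM, in ENSOCUG00000008303 at 341 CPM and in ENSOCUG00000002924 at 514 CPM. In all 5 it stood on the side of most Ad-GFP libraries, and it is 1 of the 3 microglia libraries low in the mitochondrial block. Microglia Ad-GFP replicate 4 (kit K198-7) was low in ENSOCUG00000003186, at 246 CPM, and high in ENSOCUG00000027260, at 573 CPM. In OPC, Ad-PPARg replicate 2, which had the largest trace, was high in ENSOCUG00000001856, at 4.22 raw CPM.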

How the results depend on the processing

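No member was called by edgeR in microglia with upper-quartile or RLE scaling, without the filter on low counts, without mitochondrial genes, at other rule limits or without any single library. The exceptions were 6 calls with DESeq2, 34 with limma voom with sample quality weights and 5 without the 3 libraries low in the mitochondrial block, a setting chosen after seeing the data, as were the summed prefixes and the fit without the 2 shallowest libraries. Leaving out those 3 libraries kept Ad-PPARg microglia of prefix K197 only. The count at an unadjusted p under 0.05, 50 in the main fit, was 100 with quality weights (background 32%), 88 without the 2 shallowest libraries (22%), 33 of 172 members of at least 200 CPM (11.4%), 14 with counts summed per prefix (3.94%), and 26 to 77 with single libraries left out. The replicate block by prefix gave 27 (background 6.21%) and called 0; the replicate block by kit for the difference between cell types also called 0, and the block changed no other call. OPC and difference comparisons had 0 calls under every alternative run. With single libraries left out, the difference in summed share was -1.97 to -0.602 percentage points in microglia and -0.134 to 0.0101 in OPC, reversed without Ad-PPARg replicate 1 (0.0061) and Ad-GFP replicate 3 (0.010).

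Signs of log2 fold changes that were near 0 with all libraries changed: ENSOCUG00000009645 (-0.091 to 0.028 with single libraries left out, 0.011 without the 2 shallowest), ENSOCUG00000026988 (-2.82 to 0.34, 0.29 without the 2 shallowest, 0.51 summed per prefix, -2.93 without the 3 libraries low in the mitochondrial block), the quiet member on scaffold GL018973 (-0.051 to 0.058, 0.027 with upper-quartile scaling, 0.00065 without the filter, 0.091 without the 3 libraries) and that on chromosome 7 (0.024 with quality weights, 0.0010 without the 3 libraries). The causes were not tested. Low trace counts in OPC, as few as 1 per member, limit single genes there and in the difference between cell types (median SE 0.51 and 0.54).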
